A study of Mus musculus with 32 samples.

Results

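The p53 family and its targets were followed in the tibialis anterior (TA) muscle of WT and *Mtm1* KO mice. The set comprised 9 of the 54838 genes in the expected count table: the family members *Trp53*, *Trp63* and *Trp73*, the growth arrest genes *Cdkn1a*, *Sfn* and *Ccng1*, the p53 inhibitor *Mdm2*, and the cell death genes *Bbc3* and *Phlda3*. These genes were chosen by name from earlier results of the KO and WT comparison in these data, so their differences between genotypes are given as a description with no test.

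*Mtm1* encodes myotubularin, a lipid phosphatase whose loss causes X-linked myotubular myopathy. The mice were of the C57BL6/J strain, and the KO carried a deletion of exon 4 of *Mtm1* in the whole animal, so that muscle fibres and all other cells of the tissue lacked the intact gene. Each genotype gave 4 libraries at an age, and the ages were P1, P14, P21 and P35, for 32 libraries in all, with no treatment named for either genotype. The labels number the 4 as replicates without saying that each is a separate mouse, so *P*-values measure the spread between these libraries, which may in part be technical. Counts summed to 49321035 to 85631408 per library. *Mtm1* was measured at 5.26 to 6.02 CPM (read counts scaled to sequencing depth) in WT and 2.32 to 3.91 CPM in KO libraries at P1, and at 18.9 to 24.9 CPM in WT and 2.64 to 4.51 CPM in KO libraries from P14 on, so the KO libraries lay below the WT libraries at every age.

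p53 is a transcription factor that is held at low protein levels by MDM2, an enzyme that marks it for degradation, and that accumulates under DNA damage, ribosomal stress and other insults. It then binds pairs of short half-sites near its target genes and raises transcripts that stop the cell cycle, trigger cell death or repair DNA, and one of these targets is *Mdm2* itself. p63 and p73 bind the same kind of site; p63 is best known as the factor that maintains the basal layer of the skin. In skeletal muscle, p21 (encoded by *Cdkn1a*) is known for the cell cycle exit of myoblasts as they differentiate. The p53 protein is controlled mainly after translation, and protein was not measured in these libraries.

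The sequence before the transcription start is shown for 5 members, since p53 binds pairs of half-sites and the members differed in whether a half-site was found there. Of the 9 members, 8 had RefSeq promoter windows (GRCm38.p6, 12 windows of 300 bases, from 250 bases before to 50 after a start), and *Trp63* had none. The p53 half-site was searched on both strands, as was a pair of half-sites with up to 13 bases between them and at most 1 mismatch in all. Capitals mark half-sites and pairs, and the 250 bases before the start are printed 5′ to 3′ on the strand of the gene.
Cdkn1a, chr17:29090729-29090978, plus strand: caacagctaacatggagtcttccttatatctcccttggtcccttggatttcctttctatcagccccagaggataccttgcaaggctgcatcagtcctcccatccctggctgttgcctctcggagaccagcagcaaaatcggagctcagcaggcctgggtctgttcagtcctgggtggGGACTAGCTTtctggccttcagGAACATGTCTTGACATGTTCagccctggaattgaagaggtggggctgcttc
Ccng1, chr11:40755287-40755536, minus strand: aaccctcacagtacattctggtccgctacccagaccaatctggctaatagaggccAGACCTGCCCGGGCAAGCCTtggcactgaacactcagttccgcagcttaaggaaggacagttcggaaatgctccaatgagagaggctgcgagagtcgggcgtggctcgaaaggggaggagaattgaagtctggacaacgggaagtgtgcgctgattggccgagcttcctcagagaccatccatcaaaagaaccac
Mdm2, chr10:117710759-117711008, minus strand: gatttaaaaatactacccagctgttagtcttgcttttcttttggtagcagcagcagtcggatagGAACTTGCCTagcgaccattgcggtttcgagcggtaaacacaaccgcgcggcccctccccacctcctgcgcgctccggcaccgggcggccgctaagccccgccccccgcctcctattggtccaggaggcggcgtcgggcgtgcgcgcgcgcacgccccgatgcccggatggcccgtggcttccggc
Trp53, chr11:69580109-69580358, plus strand: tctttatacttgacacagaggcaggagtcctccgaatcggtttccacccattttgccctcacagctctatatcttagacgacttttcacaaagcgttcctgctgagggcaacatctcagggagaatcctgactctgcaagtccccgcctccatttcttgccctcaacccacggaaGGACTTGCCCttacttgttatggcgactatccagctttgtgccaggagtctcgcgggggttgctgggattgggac
Sfn, chr4:133602169-133602418, minus strand: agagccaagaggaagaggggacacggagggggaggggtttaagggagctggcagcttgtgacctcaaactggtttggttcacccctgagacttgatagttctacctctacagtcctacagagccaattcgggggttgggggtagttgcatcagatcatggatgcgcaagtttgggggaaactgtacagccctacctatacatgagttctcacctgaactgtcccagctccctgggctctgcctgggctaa

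A half-site was found in 4 of the 12 windows of the members (33.3%), those of *Cdkn1a*, *Ccng1*, *Mdm2* and *Trp53*, and in 8.36% of all 32851 windows of the genome. A pair was found for *Cdkn1a* and *Ccng1* and in 1.09% of all windows. The window of *Cdkn1a* belongs to the more distal of its starts, and its half-sites began 73 and 51 bases before that start. The windows of *Sfn*, *Bbc3*, *Phlda3* and *Trp73* held no match to these letters. Sequence outside the windows was not searched, so sites elsewhere in any of these genes would be missed. Among the 52 other p53 targets listed below, 40 had windows, and 12 of their 49 windows (24.5%) held a half-site. The windows were also searched, on both strands, for an AP-1 site (TGANTCA, in 7.81% of all windows), a GC box (GGGCGG, 35.7%) and a TATA box (TATAAA, 13.6%). No window of a member held the AP-1 site, 7 windows of 5 members held a GC box, and the window of *Trp53* held the TATA box, on the opposite strand. A match describes the letters and was not measured as binding.

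In WT muscle the set changed most between P1 and P14, when *Sfn*, *Trp73* and *Cdkn1a* fell and *Ccng1* rose. In KO muscle *Cdkn1a*, *Trp63*, *Sfn* and *Bbc3* lay far above WT at P21 and P35, *Ccng1* lay below, and *Trp53* and *Mdm2* differed by less than 1.5-fold. CPM were scaled by TMM over all 32 libraries, and the log2 fold changes with their standard errors (SE) come from the edgeR quasi-likelihood fit of the 8 libraries of an age. Differentially expressed genes (DEGs) were those that changed more than 1.5-fold in either direction at a Benjamini-Hochberg adjusted *P*-value under 0.01. In these bulk samples, fewer cells of a type and less RNA per cell cannot be told apart.

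**Figure D1:**
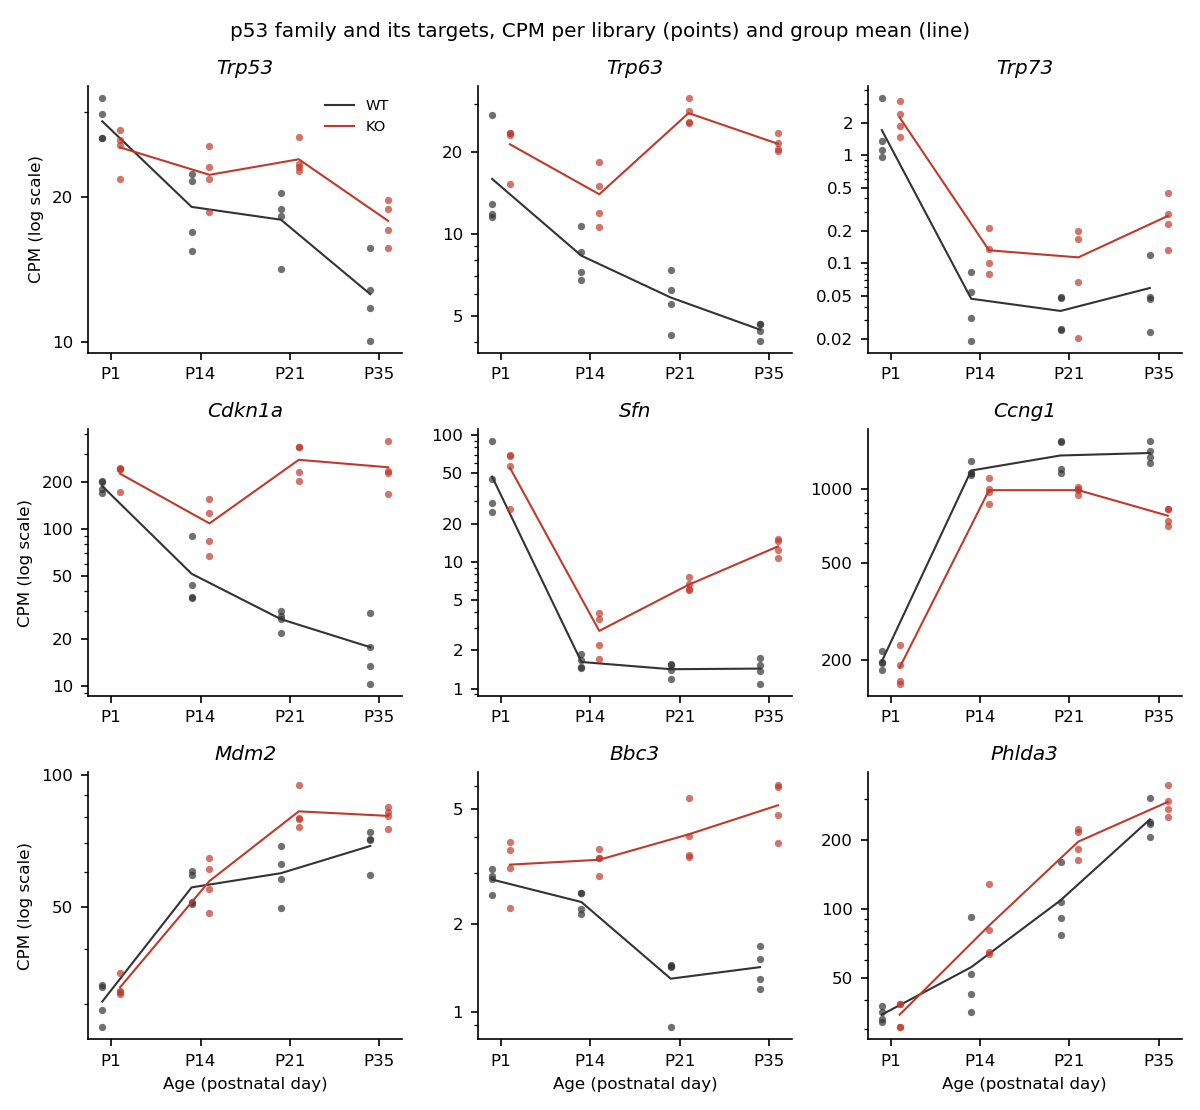
CPM (log axis) of the 9 genes against age, with 1 point per library and a line through the mean of each group of 4 libraries; WT is dark and KO is red. At P21 and P35 the KO libraries of *Trp63*, *Cdkn1a*, *Sfn* and *Bbc3* all lie above the WT libraries and those of *Ccng1* all lie below.

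The family members differed in level. Per kilobase of exon, *Trp53* was measured at 7.09 ± 0.665 CPM per kb (SD, n=4), *Trp63* at 1.90 ± 0.919 and *Trp73* at 0.308 ± 0.203 in WT at P1. *Trp53* (chr11:69580359-69591873, plus strand) encodes p53. Its CPM in WT were 26.5, 26.5, 32.01 and 29.7 at P1, 21.5, 22.3, 16.9 and 15.4 at P14, 18.9, 18.2, 20.4 and 14.2 at P21, then 10.1, 15.6, 11.8 and 12.8 at P35. In KO they were 27.6, 26.2, 25.6 and 21.8 at P1, 25.4, 23.1, 21.8 and 18.6 at P14, 23.1, 26.5, 23.4 and 22.7 at P21, then 15.7, 17.1, 18.9 and 19.7 at P35. The libraries of the genotypes overlapped at P1 and P14 and did not overlap at P21 and P35, when every KO library lay above every WT library. The log2 fold change of KO against WT was -0.17 (SE 0.0920) at P1, 0.22 (SE 0.141) at P14, 0.43 (SE 0.116) at P21 and 0.53 (SE 0.134) at P35, and the DEG thresholds were not passed at any age.

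*Trp63* (chr16:25683763-25892102, plus strand) encodes p63, whose long and short forms are not separated in gene counts. In WT its CPM were 11.9, 11.5, 27.5 and 12.9 at P1, 7.22, 8.56, 6.75 and 10.7 at P14, 7.37, 6.20, 4.23 and 5.53 at P21, then 4.65, 4.05, 4.68 and 4.38 at P35. KO libraries were at 23.1, 23.6, 15.3 and 23.6 at P1, 10.6, 11.9, 15.0 and 18.5 at P14, 28.2, 31.6, 25.6 and 25.9 at P21, then 20.2, 20.6, 23.5 and 21.5 at P35. At P1 1 WT library stood above its group and 1 KO library below its own, at P14 only the lowest KO library reached into the WT range, and from P21 the genotypes were apart. The log2 fold change was 0.44 (SE 0.287) at P1, 0.75 (SE 0.200) at P14, 2.27 (SE 0.151) at P21 and 2.30 (SE 0.0907) at P35. The DEG thresholds were passed at P21 (4.82-fold) and P35 (4.92-fold).

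*Trp73* (chr4:154056253-154140208, minus strand), which encodes p73, was detected above the filter on low counts at P1 alone. Its P1 counts were 105, 85, 342 and 146 in WT (1.12, 0.973, 3.37 and 1.36 CPM) and 422, 263, 127 and 207 in KO (3.17, 2.42, 1.49 and 1.85 CPM), with a log2 fold change of 0.40 (SE 0.408). From P14 on WT libraries held 1 to 5 counts. KO libraries held 13, 9, 6 and 4 counts at P14, 3, 8, 1 and 9 at P21, then 27, 9, 15 and 16 at P35. The genotypes overlapped at P14 and P21 and not at P35. At this depth the WT counts and some KO counts of P14 and P21 lie close to the floor of 3 counts. The KO counts of P35, at 9 to 27, were above it but still low. Reads of *Trp63* and *Trp73* may include those of 2 further genes annotated within each of them. The same holds for *Cdkn1a* and 1 gene that overlaps it on the opposite strand.

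At P1 *Trp63*, *Sfn* and *Trp73* largely moved with markers of skin within each genotype. The summed level of 14 keratinocyte markers, the main cells of the epidermis, was 2717, 2194, 6936 and 2876 CPM in the WT libraries at P1 and 5707, 5101, 1920 and 3933 CPM in the KO libraries. The library with the highest sum was the third WT library, which also had the highest *Trp63*, *Sfn* and *Trp73* of the 8, and the lowest sum was that of the third KO library, which had the lowest *Trp63* and *Sfn* of the KO libraries. All 14 markers were tested at P1, and 0 of them passed by edgeR or DESeq2, with 0 at an unadjusted *P*-value under 0.05. From P14 on the sum was 10.4 to 27.3 CPM in both genotypes, and the basal keratins *Krt5* and *Krt14* were at or under 0.398 CPM in every library. At P21 *Krt5* was listed at 0 in all WT libraries and was at or under 0.0227 CPM in KO. Of the 14 markers 5 passed the filter on low counts at P21 and 5 at P35. Of these, 1 rose at each age, *Grhl3*, a transcription factor of the epidermal barrier, by 3.09 on the log2 scale (SE 0.539, adjusted *P*-value=0.00453) at P21 and 4.60 (SE 0.807, adjusted *P*-value=0.00188) at P35, from a WT mean of 0.0541 and 0.0413 CPM. The others tested did not pass and went both ways. At P21 and P35 *Col17a1* was at -0.85 and -0.68, *Itgb4* at -0.23 and 0.48, *Krt10* at 0.21 and -0.002, and *Cdh1* at 0.08 and 1.65. Of the 5, 2 and 3 were at an unadjusted edgeR *P*-value under 0.05, beside 5329 of 15179 and 7848 of 15595 genes tested.

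**Figure D2:**
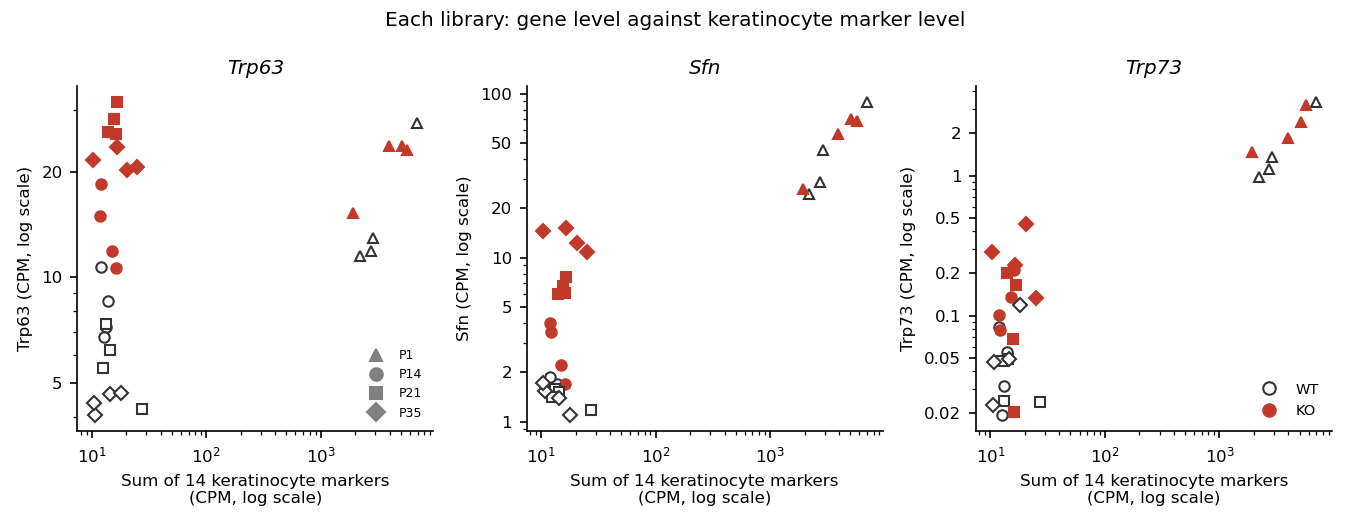
*Trp63*, *Sfn* and *Trp73* in CPM against the summed CPM of 14 keratinocyte markers, 1 point per library, both axes on a log scale; symbols give the age, open points WT and filled points KO. The P1 libraries lie at marker sums of 1920 to 6936 CPM, and at the later ages *Trp63* and *Sfn* separate the genotypes at marker sums of 10.4 to 27.3 CPM.

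Of the genes that arrest growth, *Cdkn1a* had the largest difference between genotypes of the 9 members. *Cdkn1a* (chr17:29090976-29100727, plus strand) encodes p21, an inhibitor of cyclin-dependent kinases. Its CPM in WT were 168, 200, 178 and 202 at P1, 36.7, 36.4, 44.1 and 89.7 at P14, 21.8, 30.1, 26.8 and 27.7 at P21, then 29.1, 13.4, 17.6 and 10.3 at P35. The KO values were 239, 244, 241 and 173 at P1, 67.1, 83.9, 127 and 155 at P14, 335, 335, 230 and 202 at P21, then 166, 235, 361 and 226 at P35. The WT mean was lower at each later age, whereas the KO libraries of P21 and P35 overlapped those of P1. KO differed from WT by a log2 fold change of 0.28 (SE 0.122) at P1, 1.062 (SE 0.355) at P14, 3.38 (SE 0.190) at P21 and 3.83 (SE 0.357) at P35. The thresholds were passed at P21 (10.4-fold) and P35 (14.2-fold), where the genotypes did not overlap.

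*Sfn* (chr4:133600556-133602168, minus strand) encodes 14-3-3 sigma, a protein that holds cell cycle kinases in the cytoplasm and is abundant in epithelia. Its CPM in WT were 29.1, 24.6, 89.4 and 45.4 at P1, 1.48, 1.69, 1.46 and 1.86 at P14, 1.57, 1.52, 1.18 and 1.41 at P21, then 1.39, 1.55, 1.09 and 1.73 at P35. In KO they were 68.1, 69.7, 26.4 and 57.1 at P1, 1.70, 2.22, 3.97 and 3.53 at P14, 6.73, 7.60, 6.09 and 5.96 at P21, then 12.3, 10.8, 15.2 and 14.6 at P35. WT stayed below 2 CPM after P1, while each KO library at P35 exceeded each KO library at P21. The log2 fold change was 0.25 (SE 0.430) at P1, 0.81 (SE 0.262) at P14, 2.22 (SE 0.133) at P21 and 3.22 (SE 0.170) at P35, with the thresholds passed at P21 (4.67-fold) and P35 (9.35-fold).

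*Ccng1* (chr11:40748552-40755311, minus strand) encodes cyclin G1, which recruits a phosphatase to MDM2 and is a target of p53. It had the highest mean level per kilobase of the members in WT at every age, though at P1 its libraries overlapped those of *Cdkn1a*. Its CPM in WT were 183, 218, 197 and 195 at P1, 1157, 1135, 1293 and 1163 at P14, 1559, 1199, 1156 and 1553 at P21, then 1561, 1421, 1272 and 1343 at P35. KO libraries were at 165, 192, 231 and 160 at P1, 869, 969, 1109 and 1002 at P14, 944, 988, 1001 and 1017 at P21, then 830, 708, 741 and 829 at P35. Every KO library lay below every WT library at P14, P21 and P35. KO differed from WT by a log2 fold change of -0.07 (SE 0.1201), -0.27 (SE 0.0929), -0.46 (SE 0.107) and -0.82 (SE 0.101) at the 4 ages in order, and the thresholds were passed at P35. Scaled by library totals instead of TMM, the P35 value was -0.42 and did not pass.

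*Mdm2* (chr10:117688875-117710758, minus strand) encodes the ubiquitin ligase that opposes p53. In WT its CPM were 26.6, 33.1, 29.0 and 32.8 at P1, 50.8, 51.3, 58.9 and 60.4 at P14, 68.7, 57.7, 49.6 and 62.5 at P21, then 73.9, 70.9, 59.1 and 71.3 at P35. The KO values were 32.1, 31.9, 35.3 and 31.7 at P1, 48.4, 54.8, 61.0 and 64.7 at P14, 95.0, 79.9, 75.9 and 79.3 at P21, then 75.4, 80.5, 82.1 and 84.3 at P35. KO and WT overlapped at P1 and P14, and at P21 and P35 all KO libraries lay above WT by a narrow margin. The log2 fold change was 0.12 (SE 0.0793), 0.05 (SE 0.0992), 0.48 (SE 0.0987) and 0.25 (SE 0.0828) in order of age, and the thresholds were not passed.

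The members tied to cell death came apart between genotypes at different ages. *Bbc3* (chr7:16308393-16318205, plus strand) encodes PUMA, a BH3-only protein that starts apoptosis at the mitochondrion. In WT its CPM were 2.94, 2.53, 3.10 and 2.86 at P1, 2.17, 2.57, 2.25 and 2.57 at P14, 0.884, 1.43, 1.45 and 1.43 at P21, then 1.29, 1.19, 1.69 and 1.52 at P35. In KO they were 3.85, 3.13, 2.27 and 3.61 at P1, 3.65, 3.402, 2.93 and 3.39 at P14, 4.03, 5.45, 3.41 and 3.47 at P21, then 3.81, 6.08, 5.96 and 4.78 at P35. It was the single member whose KO libraries all lay above WT at P14, and they did so at P21 and P35 too. KO differed from WT by a log2 fold change of 0.19 (SE 0.166) at P1, 0.48 (SE 0.116) at P14, 1.66 (SE 0.217) at P21 and 1.88 (SE 0.194) at P35, with the thresholds passed at P21 (3.17-fold) and P35 (3.68-fold).

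*Phlda3* (chr1:135766119-135769136, plus strand) encodes a small lipid-binding protein that restrains the kinase Akt. Its CPM in WT were 33.0, 37.6, 32.3 and 35.4 at P1, 35.4, 42.6, 52.2 and 92.3 at P14, 91.2, 160.4, 107 and 77.1 at P21, then 207, 238, 233 and 303 at P35. KO libraries were at 30.5, 38.6, 38.5 and 30.6 at P1, 63.5, 65.0, 80.9 and 129 at P14, 216, 223, 164 and 182 at P21, then 251, 274, 296 and 348 at P35. The genotypes were apart at P21 only, and in both the mean was higher at each later age. The log2 fold change was 0.01 (SE 0.0965), 0.60 (SE 0.327), 0.86 (SE 0.208) and 0.28 (SE 0.135) in order of age, and the thresholds were not passed at any of them without a replicate block. With the block described below for P14, *Phlda3* passed at that age, and DESeq2 passed it at P21.

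**Figure D3:**
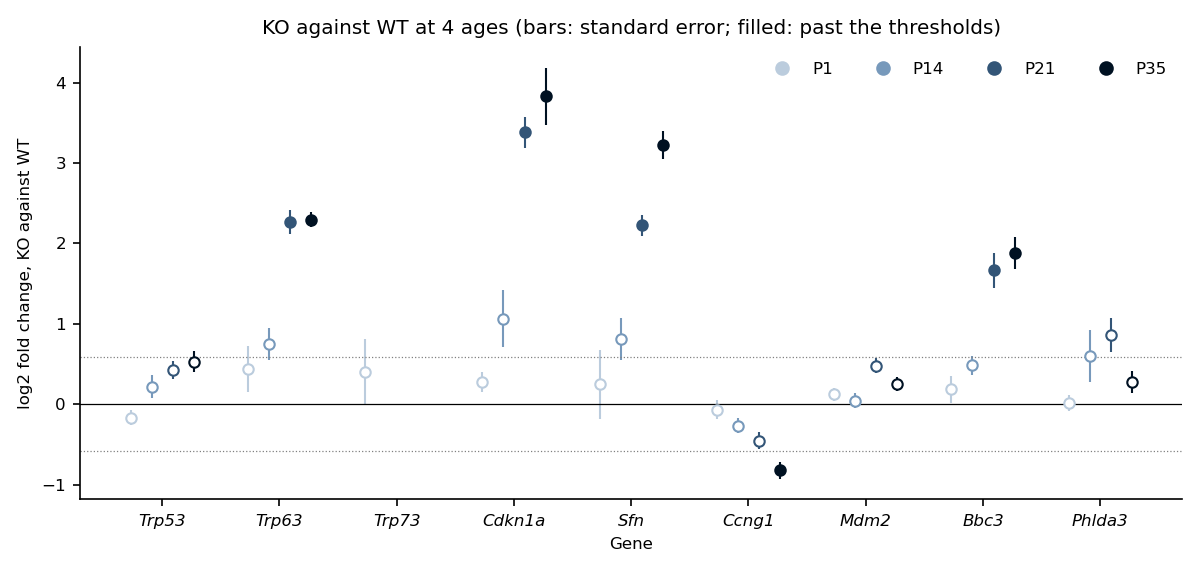
log2 fold change of KO against WT for the 9 genes at 4 ages, from n=4 libraries per genotype; bars are standard errors, filled points passed the DEG thresholds and dotted lines mark a 1.5-fold change in either direction. *Cdkn1a* reaches 3.38 at P21 and 3.83 at P35, *Ccng1* is below 0 at every age, and *Trp73* was tested at P1 only.

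Of the 9 members at P1 and the 8 tested later, 0 passed the thresholds at either of P1 and P14, 4 did at P21 and 5 did at P35, and DESeq2 passed 0, 0, 5 and 5. All 4 at P21 were higher in KO, as were 4 of the 5 at P35. Over all genes tested, 0.0442% passed at P1 and 0.0318% at P14, 3.18% passed as higher and 1.5% as lower in KO at P21, then 8.49% passed as higher and 7.52% as lower at P35. Libraries of the genotypes did not overlap for 0, 2, 8 and 8 members in order of age, against 8.62%, 4.84%, 24.7% and 39.6% of all genes tested. The 8 of P35 include *Trp73*, which was not tested there. Since the members were chosen from this comparison, nothing is read from these counts. Scaled by library totals, 7 members were higher and 0 lower at P21 and again at P35, with *Trp53*, *Mdm2* and *Phlda3* added and *Ccng1* lost at P35. Against TMM, that scaling moved the all-gene median (log2) by 0.03, 0.09, 0.19 and 0.40 in order of age, so changes are given relative to TMM.

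Per kilobase, *Ccng1* and *Phlda3* were the most abundant members in WT at P35, at 398 ± 35.2 and 157 ± 26.2 CPM per kb, followed by *Mdm2* at 13.5 ± 1.29. *Cdkn1a* (4.96 ± 2.32) and *Trp53* (3.11 ± 0.577) overlapped, as did *Sfn* (0.892 ± 0.167) and *Bbc3* (0.670 ± 0.105), and *Trp63* (0.529 ± 0.0348) and *Trp73* (0.0107 ± 0.00746) were lowest. In KO at P35 *Cdkn1a* lay above *Mdm2*, at 69.5 ± 23.1 against 15.9 ± 0.744 CPM per kb, and *Sfn* at 8.21 ± 1.27 lay above *Trp53* at 4.41 ± 0.447. *Ccng1* (221 ± 17.6) and *Phlda3* (187 ± 26.5) overlapped there.

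At P14 the libraries with the same replicate number moved together in both genotypes. KO exceeded WT within each of the 4 numbered pairs for *Trp53*, *Trp63*, *Cdkn1a*, *Sfn*, *Bbc3* and *Phlda3*, and within none for *Ccng1*. The share of all genes that did either was not counted. Since the members were also chosen from this comparison, nothing is read from that agreement between pairs. The ratio of KO to WT within pairs was 1.83, 2.31, 2.88 and 1.73 for *Cdkn1a*, 1.47, 1.39, 2.22 and 1.72 for *Trp63*, and 1.79, 1.53, 1.55 and 1.39 for *Phlda3*. With the replicate number as a block, *Cdkn1a* (log2 fold change 1.09, SE 0.102), *Trp63* (0.74, SE 0.0977) and *Phlda3* (0.64, SE 0.0575) passed the thresholds at P14, 3 members against 0 without the block, and 0.623% of all genes tested passed with the block. The labels do not say what libraries of the same number share. The pairs were inferred from these same libraries, at P14 only, so the calls with the block depend on that choice. The fourth library of both genotypes was the highest for *Cdkn1a*, *Trp63* and *Phlda3*. It also had the highest summed level of 6 muscle fibre markers, 100800 CPM in WT and 92930 CPM in KO, and the lowest of 4 markers of dividing cells, 43.3 and 28.0 CPM, against 72.2 to 123 and 82.6 to 138 CPM in the others. The part of these markers in the values was not tested.

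**Figure D4:**
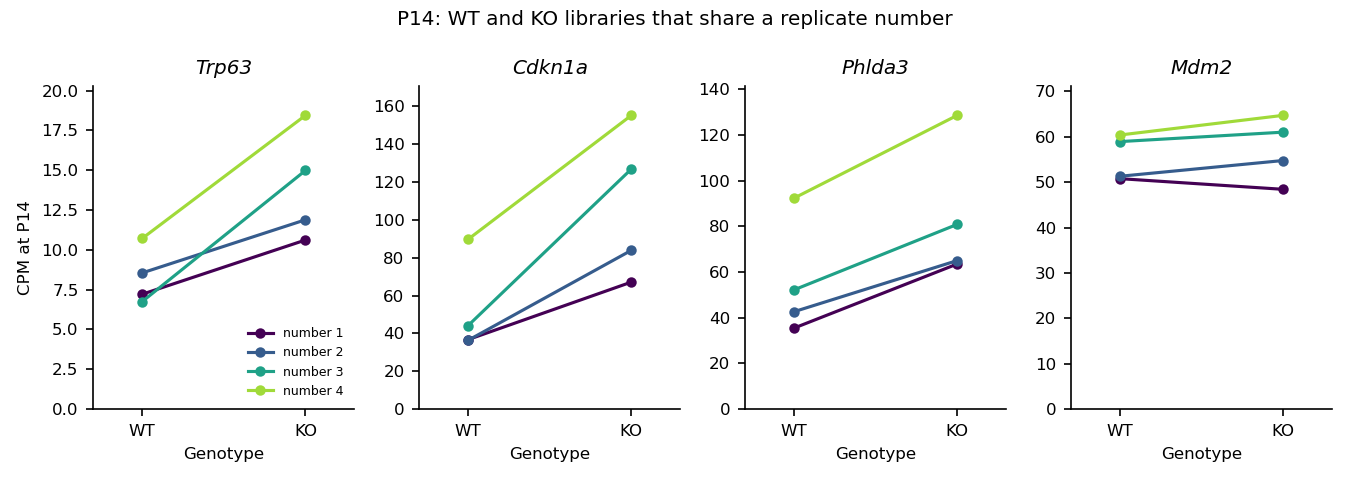
CPM at P14 of *Trp63*, *Cdkn1a*, *Phlda3* and *Mdm2* in WT and KO, with a line joining the libraries that share a replicate number. The line rises in all 4 pairs for *Trp63*, *Cdkn1a* and *Phlda3* and in 3 of 4 for *Mdm2*.

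Age within WT was tested for the members, which were named from the comparison of KO and WT. Earlier results of these data were known by then, the link of *Trp63* and *Sfn* to skin at P1 among them. These tests are therefore not independent of the choice of members. Between P1 and P14, 6 of 9 changed, against 55.1% of all genes tested. *Sfn* fell 29.3-fold (log2 fold change -4.87, SE 0.443, edgeR adjusted *P*-value=5.7e-06), *Trp73* fell by 5.18 on the log2 scale (SE 0.608, adjusted *P*-value=3.18e-05) to 1 to 4 counts per library, *Cdkn1a* fell 3.64-fold (-1.87, SE 0.277, adjusted *P*-value=0.000157) and *Trp53* 1.51-fold (-0.60, SE 0.124, adjusted *P*-value=0.00138). *Ccng1* rose 5.95-fold (2.57, SE 0.0885, adjusted *P*-value=3.16e-08) and *Mdm2* 1.81-fold (0.86, SE 0.0901, adjusted *P*-value=1.53e-05). *Trp63* missed the threshold (-0.95, SE 0.292, adjusted *P*-value=0.0128). This interval depended on the scaling. With library totals the median of all genes moved by -0.77, and the split of DEGs went from 4304 higher and 5297 lower to 1598 higher and 10025 lower. *Mdm2* was then at 0.08 (SE 0.0711, edgeR adjusted *P*-value=0.315) and lost its call, *Ccng1* still rose (1.80, SE 0.0780), and *Trp63* (-1.74, SE 0.297) and *Bbc3* (-1.04, SE 0.137) passed as lower. *Sfn*, *Trp73*, *Cdkn1a* and *Trp53* passed as lower by both scalings. The keratinocyte markers fell over the same interval, from 2194 to 6936 CPM in sum to 11.95 to 13.9 CPM, and their part in the falls of *Sfn* and *Trp73* was not tested. Without the third WT library of P1, *Trp53* lost its call, as it did without the third or the fourth WT library of P14, while the other 5 calls were kept in each of the 8 fits that left out 1 library. Age and any difference in how the libraries of an age were made cannot be told apart.

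Later the WT changes were smaller. Between P14 and P21, 1 of 8 members changed, against 5.53% of all genes tested: *Bbc3* fell 1.85-fold (-0.89, SE 0.183, adjusted *P*-value=0.00899). Between P21 and P35, 1 of 8 changed, against 2.45%: *Phlda3* rose 2.23-fold (1.15, SE 0.217, adjusted *P*-value=0.00939). Neither call was stable, since *Bbc3* was lost in all 8 fits that left out 1 library (adjusted *P*-value 0.0126 to 0.0298) and *Phlda3* in 7 of 8, all but that without the second WT library of P21 (0.00355 to 0.0306).

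The other targets of p53 were taken from a list of 52 genes, of which 52, 51, 49 and 51 were tested at the 4 ages. The list was drawn up with earlier results of these data known, so its *P*-values are not independent of that choice. At P1 and P14, 0 passed by edgeR, with 12 and 4 at an unadjusted *P*-value under 0.05, and DESeq2 called *Ddit4* at P1 and *Eda2r* at P14. Over all genes tested, 1978 of 18100 and 1072 of 15728 were at an unadjusted edgeR *P*-value under 0.05 at these ages. At P21 3 rose, 0 fell and 46 did not pass, beside 3.18% higher and 1.5% lower over all genes. *Eda2r*, a receptor of the TNF family and a target of p53, went from 5.11, 8.75, 8.31 and 7.80 CPM in WT to 223, 176, 131 and 151 CPM in KO (log2 fold change 4.51, SE 0.219, adjusted *P*-value=2.06e-05). *Gadd45a*, a stress sensor of growth arrest, rose by 1.23 (SE 0.143, adjusted *P*-value=0.00082) and *Perp*, a membrane protein of cell death and of epithelial junctions, by 1.055 (SE 0.216, adjusted *P*-value=0.00916). *Perp* kept its call in only 1 of the 8 fits without 1 library, that without the third WT library. The median log2 fold change of the list was 0.01, as was that of all genes.

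At P35 9 of the 51 other targets tested rose, 5 fell and 37 did not pass, beside 8.49% higher and 7.52% lower over all genes, and the median was 0.07 against 0.04 over all genes. In the group of cell death genes, 5 of 17 rose, 0 fell and 12 did not pass. *Eda2r* rose by 3.85 (SE 0.158, adjusted *P*-value=1.83e-06), *Pmaip1*, which encodes the BH3-only protein NOXA, by 2.08 (SE 0.338, adjusted *P*-value=0.00128), and *Bax*, the pore former that BH3-only proteins act on, by 0.83 (SE 0.0964, adjusted *P*-value=0.00027). *Perp* (1.45, SE 0.258, adjusted *P*-value=0.00196) and *Ninj1*, which ruptures the plasma membrane of dying cells (0.63, SE 0.109, adjusted *P*-value=0.00177), rose too. *Bax* was at 11.2 to 13.3 CPM in WT and 19.4 to 24.4 CPM in KO, and *Pmaip1* at 0.146 to 0.332 CPM in WT and 0.801 to 1.44 CPM in KO.

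*Thbs1*, which encodes the secreted matrix protein thrombospondin 1, rose by 1.81 (SE 0.392, adjusted *P*-value=0.00542) at P35. Of 7 genes of growth arrest *Btg2* and *Gadd45a* rose. Of 11 metabolic targets 4 fell, 0 rose and 7 did not pass. *Lpin1*, an enzyme of lipid synthesis, fell by 1.12 (SE 0.125, adjusted *P*-value=0.000228), *Tigar*, which lowers glycolytic flux, by 0.81 (SE 0.129, adjusted *P*-value=0.00112), and *Aldh4a1*, an enzyme of proline breakdown, by 0.74 (SE 0.143, adjusted *P*-value=0.0031), and *Sco2* was the fourth. Of 7 repair genes *Polk*, a translesion DNA polymerase, fell by 0.95 (SE 0.132, adjusted *P*-value=0.000595). *Thbs1*, *Btg2*, *Gadd45a* and *Sco2* lie outside the 10 smallest adjusted *P*-values and were named after their values were seen. *Thbs1* kept its call in 5 of the 8 fits that left out 1 library, *Btg2* in 4, *Gadd45a* in 2 and *Sco2* in 1, and *Ninj1* lost its call without the third or the fourth KO library. Of the 4 genes that feed back on p53, 0 passed by edgeR or DESeq2 at any age. Under an unadjusted edgeR *P*-value of 0.05 there was 1 at P1 and 1 at P35, beside 1978 of 18100 and 7848 of 15595 genes tested. The gene at P35 was *Cop1* (-0.49, SE 0.0845, edgeR adjusted *P*-value=0.00173), which missed the edgeR call on the fold threshold alone. Every KO library lay below every WT library for *Cop1*, which was named after its values were seen. Scaled by library totals, 14 targets were higher and 1 lower at P35, and of the 5 that fell only *Lpin1* passed.

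**Figure D5:**
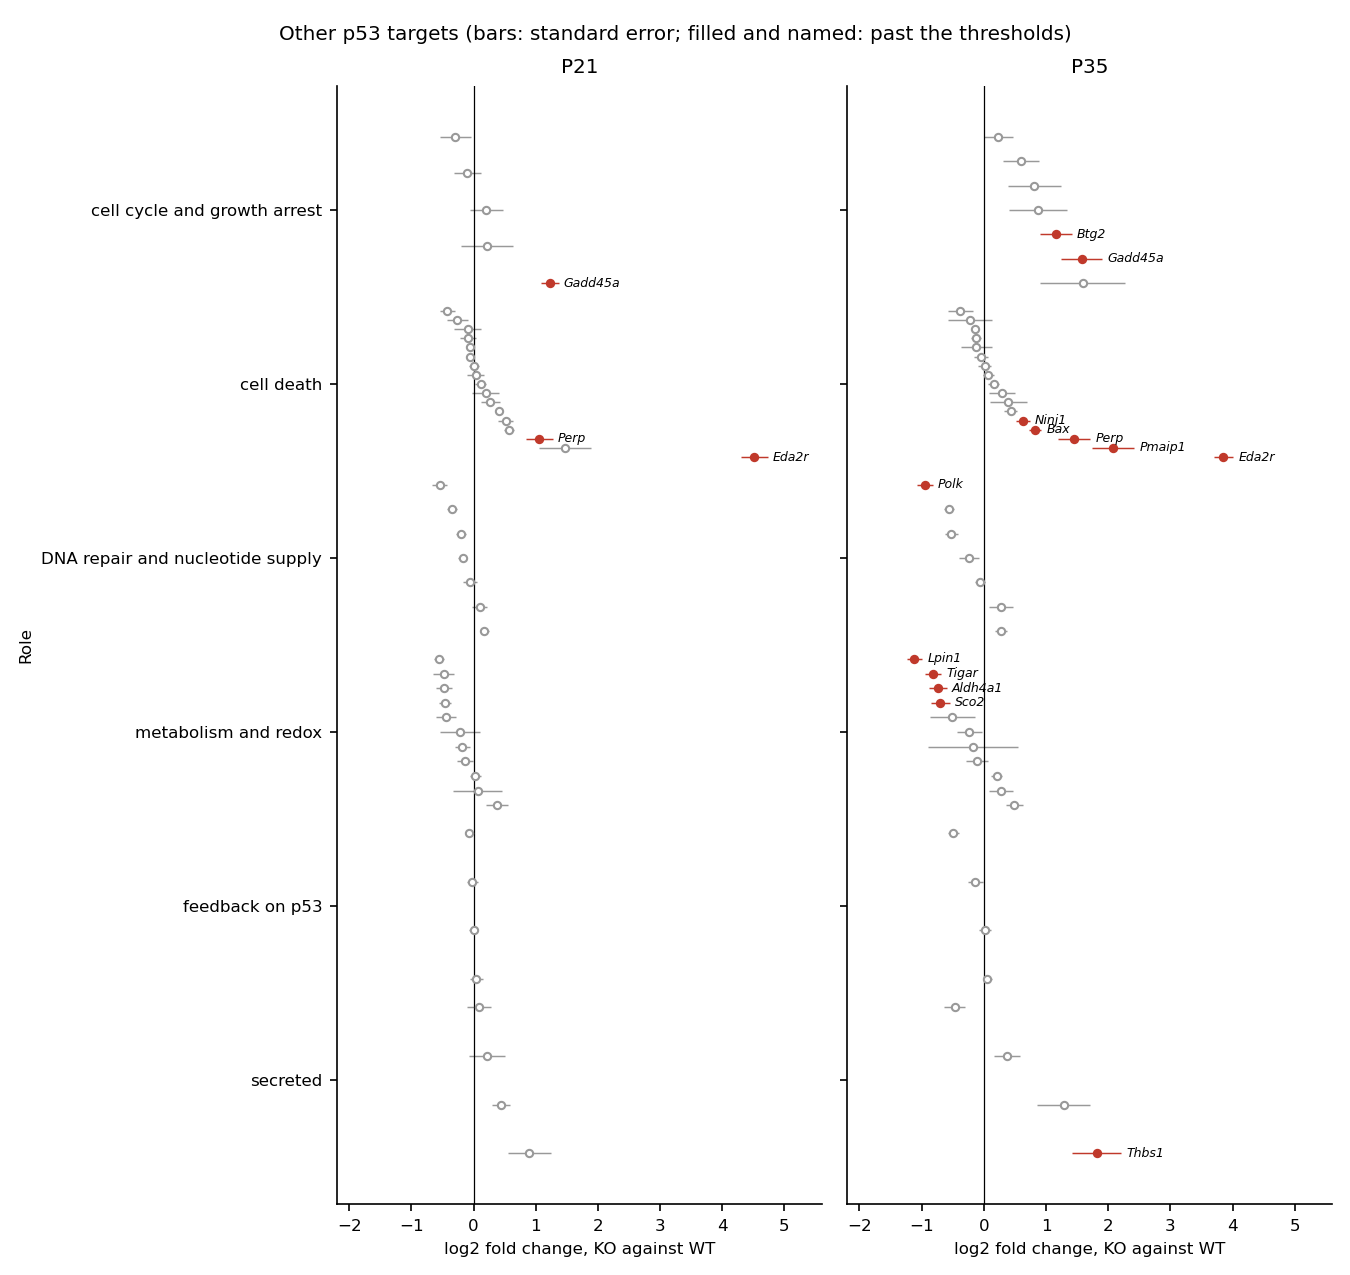
log2 fold change of KO against WT at P21 and P35 for the other p53 targets, grouped by role, from n=4 libraries per genotype; bars are standard errors, filled and named points passed the thresholds, and 1 gene is not shown. At P35 the named genes of cell death lie to the right of 0 and those of metabolism to the left.

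Regulators of p53 were taken from a list of 20 genes, also drawn up with earlier results of these data known. Of these, 19 were tested at each age, and *Cdkn2a*, which encodes the MDM2 inhibitor ARF, was not. By edgeR 0 passed at P1, P14 and P21, with 1, 2 and 11 at an unadjusted *P*-value under 0.05, and DESeq2 called 0. Over all genes tested, 1978 of 18100, 1072 of 15728 and 5329 of 15179 were under 0.05 at these ages. At P21 *Rpl11* (0.30, edgeR adjusted *P*-value=0.00841) and *Trp53bp1* (0.49, edgeR adjusted *P*-value=0.00545), described below, were higher in KO and missed the fold threshold alone. At P35 2 rose, 2 fell and 15 did not pass, beside 8.49% higher and 7.52% lower over all genes. *Rpl11*, a ribosomal protein that can bind MDM2, rose by 0.63 (SE 0.114, adjusted *P*-value=0.00226), and *Trp53bp1*, a DNA repair protein that binds p53, by 0.60 (SE 0.108, adjusted *P*-value=0.00224). *Hipk2*, a kinase that phosphorylates p53, fell by 1.63 (SE 0.219, adjusted *P*-value=0.000509), and *Ep300*, an acetyltransferase that acts on p53, by 0.78 (SE 0.142, adjusted *P*-value=0.00229). *Hipk2* was at 51.8 to 95.3 CPM in WT and 20.4 to 31.7 CPM in KO. Scaled by library totals, 5 regulators were higher and 1 lower, and *Ep300* did not pass. *Trp53bp1* was not called by DESeq2. *Hipk2* and *Ep300* kept their calls in all 8 fits that left out 1 library. *Rpl11* lost its call without the third WT, the third KO or the fourth KO library, and *Trp53bp1* without the second WT, the third KO or the fourth KO library.

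The difference of the KO effect between neighbouring ages was tested for the other targets and regulators in 1 fit of all 32 libraries at an adjusted *P*-value under 0.01. The lists were drawn up with earlier results of these data known, and *Eda2r* was the single gene of either to pass. Its KO effect grew by 1.53 (SE 0.249, adjusted *P*-value=0.00813) from P1 to P14 and by 2.88 (SE 0.255, adjusted *P*-value=1.22e-07) from P14 to P21, where 0.0161% and 0.425% of all genes passed. Between P21 and P35, 0 targets passed by edgeR, against 0.463% of all genes. At an unadjusted edgeR *P*-value under 0.05 there were 12 of the 52 targets, beside 3241 of all 18583 genes tested. With the block at P14, *Eda2r* was called there too, from 16.3 to 20.8 CPM in WT to 41.98 to 71.7 CPM in KO, whereas the growth from P1 to P14 was not.

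Markers of other cells differed between genotypes at the ages where the members did. Of 4 macrophage markers *Cd68* and *C1qa* rose at P21 and P35, and the summed level of the 4 was 26.6 to 30.7 CPM in WT and 38.8 to 50.4 CPM in KO at P21, then 26.4 to 32.7 and 38.2 to 56.5 CPM at P35. The satellite cell marker *Pax7* fell at both ages (-0.91, SE 0.148, adjusted *P*-value=0.00348, and -1.43, SE 0.164, adjusted *P*-value=0.000248), and *Adipoq* and *Plin1* of 3 adipocyte markers rose at P35, with a sum of 1.87 to 7.93 CPM in WT and 11.7 to 45.8 CPM in KO. Of 6 muscle fibre markers *Des* rose at P21 and P35 and *Acta1* fell at P35. *Ckm*, *Acta1*, *Ttn*, *Pvalb* and *Mylpf* all had a log2 fold change below 0 at both ages, and DESeq2 called 2 and 4 of the 6. The summed level of the 6 was 80750 to 109600 CPM in WT and 72700 to 78220 CPM in KO at P21. At P35 it was 68480 to 102000 CPM in WT and 47410 to 64140 CPM in KO. Of 3 endothelial markers *Cdh5* fell at P35. Of the 3 fibroblast, 3 Schwann cell and 4 dividing cell markers 0 passed by edgeR at any age. At P35 the 3 Schwann cell markers were at an unadjusted edgeR *P*-value under 0.05, as were 7848 of all 15595 genes tested. DESeq2 called 2 of the 3, with a sum of 35.05 to 307 CPM in WT and 154 to 659 CPM in KO. DESeq2 called 0 of the others, and at most 2 fibroblast and 0 dividing cell markers were at an unadjusted *P*-value under 0.05 at an age. The part of these cells in the values of the members was not tested.

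Over the 24 libraries of P14, P21 and P35, the genes whose log2 CPM ran closest to each member were sought by Pearson's r. These libraries share genotype and age, so the values describe a pattern that any gene following both would show. *Trp63* and *Cdkn1a* were each other's nearest gene (r = 0.97), and the keratins *Krt18* (0.95 for both) and *Krt8* (0.95 for both), which pair in simple epithelia, came next for each. Nearest to *Sfn* were *Mvp* (0.98), *Tmbim1* (0.98) and *Sprr1a* (0.97). Nearest to *Bbc3* were *App* (0.96), *Tmem158* (0.96) and *Rras* (0.96). *Trp53* ran closest to *Smarcb1* (0.94), *Arhgdia* (0.92) and *Cx3cr1* (0.91), a chemokine receptor of macrophages, and its r with *Cdkn1a* was 0.54 and with *Mdm2* -0.08. *Ccng1* ran closest to *Mapk9* (0.96), *Gpd1* (0.95) and *Gm12319* (0.95) and opposite to *Bbc3* (-0.92). *Mdm2* was nearest to *Nploc4* (0.95), *Kat2b* (0.93) and *Psmd2* (0.93), and *Phlda3* to *Hax1* (0.96), *Dbndd2* (0.96) and *Lrrc2* (0.96). For *Trp73*, at 27 counts or fewer in these libraries, the nearest were *Coprs* (0.83), a gene with no symbol in the annotation (0.82) and *Ccdc163* (0.82).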

How the data were processed

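RNA of the TA muscle was sequenced in 32 libraries. Per the labels and the paper's methods, the authors prepared directional poly(A) libraries, sequenced paired ends, aligned them with STAR 2.6.1 to GRCm38 and deposited RSEM 1.2.22 expected counts per gene, without scaling or pooling. The annotation release and whether counting used strand are not given in the sources used here, and 54809 of 54838 identifiers had a symbol in GENCODE M21 of GRCm38, the source of gene coordinates and exon lengths. The methods also name HTSeq and DESeq2.

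Groups and replicate numbers came from the labels. Nothing beyond them was used to group samples. The members and gene lists were chosen with earlier results of these data known. Expected counts were rounded, and edgeR 4.0.16 (R 4.3.3) was run separately for each pair of groups (filterByExpr, TMM, glmQLFit, glmQLFTest, two-sided, Benjamini-Hochberg over all genes tested). Interactions used 1 fit of all 32 libraries. Totals of 49321035 to 85631408 counts mean that values under 3 counts cannot be told from absence; counts cover counting error only. No pair of replicates agreed within sampling noise. The edgeR and DESeq2 steps were tested on simulated data drawn for the P21 comparison.

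Unless said otherwise, list genes were named if past the thresholds at an age, or if among the 10 smallest adjusted *P*-values where more passed. One of these genes is counted in the totals but not reported here. Alternatives were DESeq2 1.42.0, calls by both tools, RLE size factors, library totals, no filter, at least 10 counts in every library, all 32 libraries in 1 fit, a replicate block, an adjusted *P*-value under 0.05 without a fold threshold, and leaving out each library. At P14 the deviations from group means of same-numbered WT and KO libraries correlated at 0.416, 0.468, 0.295 and 0.731 over 15728 genes, each over 0.1, so the pairs were taken as paired; at P1, P21 and P35 the lowest values were -0.347, -0.0571 and -0.0974, and they were not. Promoter windows came from RefSeq on GRCm38.p6. Figures used python 3.11.15 with pandas 2.3.3 and matplotlib 3.10.9.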

Additional observations from a re-analysis of the deposited data

Results flagged for a closer look

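In 9 of 102 groups of 4 libraries, 1 library stood farther from the others than Dixon's 95% critical value allows, and chance gives about 1 in 20 such groups. At P1 *Trp63* was 27.5 CPM in the third WT library against 11.5 to 12.9 in the other three, and 15.3 CPM in the third KO library against 23.1 to 23.6. *Trp73* was 3.37 CPM in the same WT library against 0.973 to 1.36. Those libraries had the highest and the lowest keratinocyte marker sums of P1, 6936 and 1920 CPM. *Cdkn1a* was 173 CPM in the fourth KO library of P1 against 239 to 244, and *Mdm2* was 35.3 CPM in the third against 31.7 to 32.1. At P14 *Cdkn1a* was 89.7 CPM in the fourth WT library against 36.4 to 44.1. *Bbc3* was 0.884 CPM in the first WT library of P21 against 1.43 to 1.45. At P35 *Aldh4a1* was 185 CPM in the first WT library against 136 to 143, and *Lpin1* was 159.8 CPM in the fourth KO library against 132 to 133.

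The KO effect on *Eda2r* differed between ages by the interaction test in edgeR, by 1.53 between P1 and P14 and by 2.88 between P14 and P21. Over the alternatives the first difference was 1.40 to 1.65 with an adjusted *P*-value of 0.00184 to 0.0398, and it passed in 4 of the 16 fits that left out 1 library.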

How the results depend on the processing

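Of 495 recomputed log2 fold changes of members, 0 reversed a called direction and 11 moved by more than 1 SD between replicates, all under library totals. Blocking by replicate number passed 3 members at P14 in place of 0, 1 other target (*Eda2r*) there in place of 0, 0 members in WT between P14 and P21 and between P21 and P35 in place of 1 each, and 0 interactions between P1 and P14 in place of 1. The block moved no other count of members or list genes by over 1.5 times, but over all genes it moved the DEGs from 8 to 2 at P1, from 5 to 98 at P14, and in WT from 848 to 144 between P14 and P21 and from 368 to 175 between P21 and P35. At P1, P21 and P35, where the numbers were not taken as pairs, 0, 1 and 2 of the 4 WT libraries correlated best with the KO library of their own number. At P14, where the numbers were taken as pairs, 3 of the 4 did. DESeq2 called 1 other target at P1 and 1 at P14, and 3 members between P14 and P21 in WT. One fit of all 32 libraries called 1 other target at P14 and 2 members between P14 and P21, and no filter called 1 other target at P14. Library totals called 1 other target at P14, 6 at P21 (3 by TMM), 1 regulator at P21, 7 members at P21 (4 by TMM) and 0 members in WT between P21 and P35. By an adjusted *P*-value under 0.05 alone, 1, 13 and 22 other targets passed at P14, P21 and P35, 3 and 9 regulators at P21 and P35, 8 members at P21, and 2 members in each of the later WT intervals. Leaving out 1 library gave 0 to 1 other targets at P14 (1 without the first KO library), 2 to 4 at P21, 10 to 14 at P35, 0 to 1 regulators at P21, 2 to 5 at P35, 0 to 1 members in WT from P14 to P21 and from P21 to P35, and 0 to 1 interactions from P1 to P14 and from P21 to P35. The causes were not tested. Scaled by library totals, DEGs at P35 were 4350 higher and 326 lower, against 1324 and 1172 by TMM. There were 4 libraries a group and no protein or cell sorting. The size of small differences such as those of *Trp53* and *Mdm2*, and whether they passed the thresholds, rested on the scaling chosen. At P21 and P35 both genes were higher in KO by TMM and by library totals.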
